A study of Mus musculus with 36 samples.

Results

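The livers described here came from DBA mice 3 h after a single dose of acetaminophen, a painkiller that injures the liver when too much is taken. They were chosen by the array titles: 3 arrays of DBA liver at 3 h were set against 3 arrays of DBA liver at 0 h, and these 6 were part of a series of 36 arrays with 1 mouse each. The mice at 3 h had been given acetaminophen at 300 mg/kg by injection into the abdomen, and the mice at 0 h were taken before any dose. Both groups were of the strain labelled DBA, written DBA/2 in the series design, and had been fasted for more than 16 h to lower liver glutathione. Livers of 3 other strains, labelled SJL, SMJ and C57, were taken at the same times after the same dose, and the series calls SJL resistant to the injury and DBA, SMJ and C57 sensitive. Age and sex of the mice were not given in the sources used here. No group given vehicle alone was used here, so time after the dose, time of day and length of fasting cannot be told apart.

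As background, acetaminophen is mostly cleared by glucuronidation and sulfation, while cytochrome P450 enzymes of the hepatocytes around the central vein turn part of it into the reactive quinone imine NAPQI. Glutathione traps NAPQI, and once it runs low NAPQI binds proteins, mitochondria suffer oxidant stress and the stress kinase JNK is switched on. The early transcriptional answer of a stressed cell comes from genes that need no new protein to be induced, among them the AP-1 factors, followed by feedback genes that restrain the same kinases.

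Each array gave 1 MAS5 signal per probe set, and every array had the same trimmed mean, 150, so a signal says how bright a probe set was relative to its own array. The annotation gave 18193 genes at least 1 probe set that named no other gene, and 14057 of them were bright enough to test. Pairs of arrays had correlations across genes between 0.949 and 0.961 within the 3 h group and between 0.95 and 0.96 within the 0 h group, and precision is limited by having 3 arrays in each. The ratio of the 3' to the 5' actin signal, a measure of RNA integrity, was 1.52 to 1.64 at 3 h and 1.69 to 1.82 at 0 h, without overlap, while the same ratio for GAPDH was 0.712 to 0.734 at 3 h and 0.699 to 0.733 at 0 h. With the actin ratio as a covariate, 127 genes were higher and 57 lower, of which 123 and 43 were among those called without it. Changes below are log2 differences, 3 h minus 0 h, with the standard error (SE) from a limma model of all 36 arrays, and adjusted p values are limma's after Benjamini-Hochberg adjustment over the 14057 genes. Mice are named by their label numbers: DBA158, DBA159 and DBA160 at 3 h, and DBA113, DBA114 and DBA115 at 0 h.

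At 3 h, 148 genes were higher (1.05% of those tested) and 56 were lower (0.398%) at an adjusted p under 0.05. At least 2-fold changes made up 127 of the rises (0.903% of genes tested) and 31 of the falls (0.221%), and 204 genes were called in either direction (1.45%). Among the rises the signal had a median of 609 at 3 h and 156 at 0 h, and the median change was 1.75. The falls were dimmer and smaller, with a median signal of 89.1 at 3 h and 181.3 at 0 h and a median change of -1.04. Over all genes tested the median change was -0.04, a value that the scaling of every array to one trimmed mean holds near 0. All 3 arrays at 3 h lay above all 3 at 0 h for 1120 genes (7.97%) and below them for 1664 (11.8%). The called genes were nearly all of this kind, 147 of 148 rises and 56 of 56 falls. Without 1 of the 6 arrays, the rises numbered between 100, without DBA113, and 151, without DBA114, and the falls between 17, without DBA113, and 52, without DBA158. A fit of the 6 arrays alone gave 70 rises and 22 falls, of which 63 and 8 were among those above, and array weights gave more of both, 1.64% and 1.28% of genes tested. The genes picked for naming included 99 called genes, and not all are mentioned below. Of these 99, 54 did not pass in the fit of the 6 arrays alone, and 14 of 96 did not with the mean of a gene's probe sets. Of the 56 falls, 15 were also called without DBA113, 21 without DBA115 and 21 without DBA160, where the counts were 17, 24 and 27.

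The 3 mice at 0 h were not equal in these genes. DBA114 was the highest of the 3 in 99 of the 148 genes that rose (66.9%), against 34.2% of all genes tested. DBA115 was the highest in 36 and DBA113 in 13. For Egr1, DBA114 had a signal of 950.3, against 173 in DBA113 and 285 in DBA115. The same mouse stood above the other 0 h mice for Igfbp1, Cdkn1a and Errfi1, and the part this played in the changes was not tested beyond leaving the array out.

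The largest rises were in the AP-1 and ATF family, transcription factors that pair through leucine zippers and act at AP-1 and cAMP response elements. Of 14 members tested, 9 rose and 0 fell, with a list median of 1.44. Atf3, a repressor induced by many kinds of cell stress, had signals of 1835, 1829.5 and 1551 at 3 h, against 7.35, 31.0 and 30.2 at 0 h. The groups were far apart, with every mouse at 3 h far above the highest mouse at 0 h. Atf3 rose by 6.27 ± 0.59 (adjusted p = 1.21e-07), the largest change of any gene that rose, at 77.4-fold on the scale with an offset. Fos, which with Jun forms the classical AP-1 dimer, had 3418, 2447 and 2993 at 3 h, against 53.9, 69.0 and 59.3 at 0 h, and rose by 5.53 ± 0.94 (adjusted p = 0.000754). Jun had 6256, 5672 and 7489.5 at 3 h, against 223, 429 and 180.3 at 0 h, and rose by 4.62 ± 0.68 (adjusted p = 9.48e-05). In neither gene did any mouse at 3 h come near the range at 0 h.

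Of the other members, Maff, a small MAF protein that pairs with NRF2, had 266, 566 and 567 at 3 h, against 15.2, 43.2 and 22.7 at 0 h, and rose by 4.01 ± 0.37 (adjusted p = 8.71e-08). DBA158 was the lowest 3 h mouse for Maff and still far above the highest 0 h mouse. Junb, a second JUN protein, rose by 3.02 ± 0.40, Fosl2 by 1.93 ± 0.26 and Jdp2, which represses AP-1 sites as a JUN partner, by 1.72 ± 0.22 (adjusted p = 2.01e-05, 2.53e-05 and 1.68e-05). The smallest rises were those of Mafk, at 1.16 ± 0.24, and of Jund, at 1.00 ± 0.19 (adjusted p = 0.0058 and 0.00363). The call on Mafk ended without DBA159 (change 1.02, adjusted p = 0.0556) or without DBA114. Without any 1 DBA array of the 6, the list had 8 or 9 called members. In the fit of the 6 arrays alone it had 5, and Junb, Fosl2, Mafk and Jund did not pass (adjusted p = 0.0585, 0.0503, 0.177 and 0.0796). With the mean of a gene's probe sets Jdp2, at 1.01 (adjusted p = 0.054), and Jund, at 0.79 (adjusted p = 0.0995), were not called, and the change of Fosl2 was 1.09.

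**Figure D1:**
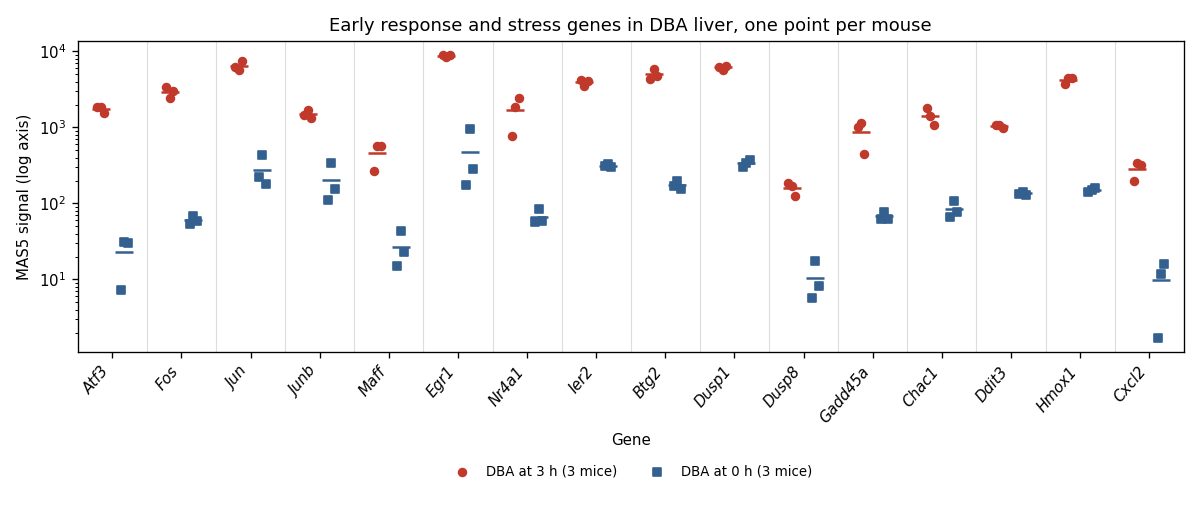
MAS5 signals on a log axis for 16 genes of the early response and stress lists, with 1 point per mouse, DBA at 3 h left of DBA at 0 h, and a bar at each group mean. In all 16 genes the 3 mice at 3 h lie above the 3 mice at 0 h. The highest 0 h point is DBA114 in every gene but Dusp1, Hmox1 and Cxcl2.

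Egr, Ier, Nr4a and Klf genes encode other early response proteins, mostly zinc finger transcription factors and orphan nuclear receptors. Of 19 tested, 11 rose and 0 fell, with a list median of 1.82, the highest median of the 40 lists. Egr1, a zinc finger factor induced by MAP kinases, had 9038, 8495 and 8842 at 3 h, against 173, 950.3 and 285 at 0 h, and rose by 4.59 ± 0.76 (adjusted p = 0.000486). Nr4a1, an orphan nuclear receptor, had 765, 1863 and 2444 at 3 h, against 56.8, 85.1 and 58.5 at 0 h, and rose by 4.47 ± 0.49 (adjusted p = 1.24e-06). The 3 h mice differed among themselves for Nr4a1, with DBA158 lowest, but none came near the 0 h range. Ier2, a short-lived nuclear protein, had 4202, 3536 and 4139 at 3 h, against 310.0, 327 and 299.8 at 0 h, and rose by 3.65 ± 0.56 (adjusted p = 0.000187). Csrnp1, a nuclear protein induced by AXIN1, had 258, 317 and 312 at 3 h, against 12.9, 28.9 and 5.58 at 0 h, and rose by 4.21 ± 0.44 (adjusted p = 6.42e-07). The rise of Csrnp1 was 1.73 with the mean of its probe sets.

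Myc, the growth-promoting transcription factor, rose by 2.22 ± 0.32, and Klf6 and Ier3 by 2.20 ± 0.29 and 2.07 ± 0.38 (adjusted p = 8.53e-05, 2.4e-05 and 0.00222). Klf2, a Kruppel-like factor known for its role in endothelial cells, rose by 1.89 ± 0.33 (adjusted p = 0.00106). Passing with less margin were Egr2 at 2.26 ± 0.57, Klf4 at 1.82 ± 0.46 and Klf9, a gene induced by glucocorticoids, at 0.83 ± 0.19. Egr2 lost its call without DBA114, DBA115, DBA159 or DBA160 (adjusted p up to 0.288, change 1.76, without DBA115). Klf4 lost it without any 1 of the 6 arrays (adjusted p up to 0.155, without DBA113), and Klf9 without DBA113, DBA158 or DBA160 (adjusted p up to 0.164, without DBA113).

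Genes that stop growth or switch MAP kinases off rose beside them: 10 of 21 tested were higher and 0 lower, with a list median of 1.12. Btg2, an antiproliferative protein that also speeds mRNA deadenylation, had 4306, 5912 and 4751 at 3 h, against 172, 195 and 156 at 0 h. The 2 ranges were narrow and far apart, and Btg2 rose by 4.81 ± 0.35 (adjusted p = 1.86e-09). Dusp1, a nuclear phosphatase that inactivates JNK and p38, had 6299.8, 5656 and 6489.8 at 3 h, against 297, 342 and 377 at 0 h, and rose by 4.17 ± 0.54 (adjusted p = 1.68e-05). Dusp8, a phosphatase of the same kinases, was near the lower end of the scale before the dose: it had 187, 171 and 127 at 3 h, against 5.69, 17.4 and 8.15 at 0 h, and rose by 3.72 ± 0.41 (adjusted p = 1.11e-06). Dusp6, a phosphatase of ERK, rose by 1.79 ± 0.29 and Dusp16, a phosphatase of JNK, by 1.01 ± 0.14 (adjusted p = 0.000416 and 6.82e-05).

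All 3 Gadd45 genes, whose products bind stress kinase regulators and cell cycle proteins, were called. Gadd45a had 1003, 1151 and 452 at 3 h, against 62.7, 78.0 and 62.5 at 0 h, and rose by 3.53 ± 0.55 (adjusted p = 0.000222). DBA160 was the lowest 3 h mouse, well below the other pair. Gadd45g rose by 2.36 ± 0.44 and Gadd45b by 1.43 ± 0.32 (adjusted p = 0.00235 and 0.015). Gadd45b lost its call without DBA113, DBA115 or DBA160 (adjusted p up to 0.134, change 1.16, without DBA160), nor was it called with the mean of its probe sets, at 0.78 (adjusted p = 0.299). Errfi1, a feedback inhibitor of the EGF receptor, had 11298, 10953 and 11326 at 3 h, against 1627, 8129 and 4799 at 0 h, and rose by 1.49 ± 0.29 (adjusted p = 0.00448). The 0 h mice spanned a wide range up to DBA114. Without DBA113, the lowest 0 h mouse, the rise of Errfi1 was 0.84, and it did not pass in the fit of the 6 arrays alone (adjusted p = 0.419).

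Short promoter stretches of these genes are shown because the AP-1 and CREB families act at the cAMP response element (CRE), and because several feedback genes that rose carry its full palindrome. The stretches come from RefSeq on GRCm38.p6, read 5′ to 3′ on the gene's strand upstream of the annotated start, and capitals mark each match to TGACGTCA:
Btg2: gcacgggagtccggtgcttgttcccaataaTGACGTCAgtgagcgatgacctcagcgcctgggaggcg
Dusp1: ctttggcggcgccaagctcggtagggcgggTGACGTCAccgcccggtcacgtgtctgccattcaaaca
Dusp8: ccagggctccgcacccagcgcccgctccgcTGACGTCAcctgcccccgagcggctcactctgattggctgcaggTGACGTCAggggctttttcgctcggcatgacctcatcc
Errfi1: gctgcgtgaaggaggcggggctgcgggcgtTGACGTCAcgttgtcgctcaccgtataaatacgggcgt
Maff: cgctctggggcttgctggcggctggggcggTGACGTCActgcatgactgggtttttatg
Ppp1r15a: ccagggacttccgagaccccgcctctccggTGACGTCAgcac
Epha2: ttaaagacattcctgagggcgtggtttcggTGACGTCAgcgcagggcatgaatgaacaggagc
They lie at chr1:134079284-134079351, minus strand, for Btg2, chr17:26508578-26508645, minus strand, for Dusp1, chr7:142095310-142095421, minus strand, for Dusp8, chr4:150854989-150855056, plus strand, for Errfi1, chr15:79347461-79347519, plus strand, for Maff, chr7:45526269-45526310, minus strand, for Ppp1r15a and chr4:141301158-141301220, plus strand, for Epha2. Dusp8 holds the palindrome at 2 places. In windows from 250 bases before to 50 bases after a start, TGACGTCA was found for 10 of the 124 rising genes with a window (8.06%), against 3.21% of all genes tested. None of 46 falling genes with a window held it. The other 3 genes with it were Ccnl1, Rcan1 and Slc25a25. The EGR site GCGGGGGCG was found for 14.5% of rising genes and 5.85% of all genes tested, and the antioxidant response element TGACNNNGC for 26.6% and 16.5%. For the AP-1 site TGANTCA the shares were 6.45% and 7.11%, for the heat shock element GAANNTTC 5.65% and 7.24%, and for the ATF4 element TGATGNAAT 0.806% and 0.672%. Both strands were searched, and rising genes had slightly more windows each (1.32 against 1.27 for all tested). These are descriptions with no test, and a match is not a site in use.

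Regulators of mRNA decay moved in part: 2 of 12 rose and 0 fell, with a list median of 0.16. Zfp36, which binds AU-rich elements and speeds decay of cytokine mRNAs, had 6455, 5349 and 5583 at 3 h, against 491, 1032 and 607 at 0 h, and rose by 3.09 ± 0.36 (adjusted p = 3.82e-06). Arid5a, which stabilises such mRNAs, rose by 2.34 ± 0.57 (adjusted p = 0.0278), but without DBA113, DBA115, DBA158, DBA159 or DBA160 its call ended (adjusted p up to 0.254, without DBA113).

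The integrated stress response, in which ATF4 is translated when the factor eIF2 is phosphorylated, had 10 of 20 tested members higher and 0 lower, with a list median of 0.93. Chac1, which degrades glutathione, had 1777, 1404 and 1090.2 at 3 h, against 66.3, 108 and 76.7 at 0 h, and rose by 4.04 ± 0.41 (adjusted p = 4.2e-07). All 3 mice were far above the highest 0 h mouse. Ddit3, the death-associated factor CHOP, had 1072, 1073 and 979 at 3 h, against 134, 143 and 129 at 0 h, and rose by 2.92 ± 0.58 (adjusted p = 0.00483). Slc38a2, an amino acid transporter, had 4730.2, 5262 and 4762 at 3 h, against 933, 1252 and 951 at 0 h, and rose by 2.24 ± 0.18 (adjusted p = 1.55e-08). In both genes the spread within a group was small beside the gap between groups. With the mean of a gene's probe sets Ddit3 was not called (adjusted p = 0.0726), and the rise of Slc38a2 was 1.40. Atf4 itself rose by 1.03 ± 0.20, Cebpb by 1.43 ± 0.19 and Sesn2, an antioxidant inhibitor of mTORC1, by 1.13 ± 0.21 (adjusted p = 0.00336, 2.29e-05 and 0.00171).

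Ddit4, an inhibitor of mTORC1 induced by stress and glucocorticoids, had 659, 339 and 338 at 3 h, against 74.1, 85.8 and 58.01 at 0 h, and rose by 2.51 ± 0.49 (adjusted p = 0.00422). DBA158 was above the other 3 h mice, and without it the change was 2.20 (adjusted p = 0.0424). Fgf21, a fasting and stress hormone of the liver, had 5990, 5011 and 3831 at 3 h, against 1006, 1203 and 649.6 at 0 h, and rose by 2.39 ± 0.52 (adjusted p = 0.0107). Its call ended without DBA115 (change 2.14, adjusted p = 0.0859) or DBA158. Ppp1r15a, the phosphatase subunit that reverses eIF2 phosphorylation, rose by 1.34 ± 0.27 (adjusted p = 0.0048, and 0.0565 without DBA113), and Slc3a2, a subunit of amino acid exchangers, by 0.56 ± 0.14 (adjusted p = 0.0264, and up to 0.169, without DBA160; it also ended without DBA113, DBA115 or DBA159). The count was between 8 and 10 without any 1 of the DBA arrays and 6 in the fit of the 6 arrays alone.

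Genes of the endoplasmic reticulum gave few calls. Of 21 tested in the unfolded protein response, 1 rose and 1 fell, and the list median was -0.02. Herpud1, a component of endoplasmic reticulum-associated degradation, had 9296, 7832 and 9655 at 3 h, against 2896, 3437 and 3493 at 0 h, and rose by 1.45 ± 0.23 (adjusted p = 0.000286). Ern1, the sensor IRE1 alpha, had 462, 320.1 and 388 at 3 h, against 585, 642 and 567 at 0 h, and fell by 0.63 ± 0.14 (adjusted p = 0.0152). With the mean of all its probe sets the change of Ern1 was 0.05 and it was not called (adjusted p = 0.939), and its call also ended without DBA113, DBA114, DBA159 or DBA160 (adjusted p up to 0.149, without DBA159). Of 23 heat shock proteins and co-chaperones, 2 rose and 0 fell, with a median of 0.05: Dnajb1, an HSP40 co-chaperone, at 2.09 ± 0.44 and the small heat shock protein Hspb8 at 1.20 ± 0.25 (adjusted p = 0.00778 and 0.00768). Without DBA113 neither was called (adjusted p = 0.0565 and 0.0989), and Hspb8 also lost its call without DBA115, DBA158 or DBA159.

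Among 16 p53 target genes, 5 rose and 0 fell, though the list median was 0.05. Plk3, a polo-like kinase of the stress response, had 2337, 2703 and 2004 at 3 h, against 47.7, 280.4 and 122 at 0 h, and rose by 4.27 ± 0.43 (adjusted p = 3.01e-07). Cdkn1a, the cell cycle inhibitor p21, had 2048, 2102 and 1797 at 3 h, against 179, 638 and 109 at 0 h, and rose by 3.07 ± 0.51 (adjusted p = 0.000574). The 0 h mice differed more than the 3 h mice for both, with DBA114 the highest. Trp53inp1, which promotes p53 activity and autophagy, rose by 2.86 ± 0.33 and Mdm2, the ubiquitin ligase of p53, by 1.32 ± 0.21 (adjusted p = 3.02e-06 and 0.00041). Sesn2 was the fifth. In the fit of the 6 arrays alone the count was 1, Trp53inp1, and Plk3, Cdkn1a, Mdm2 and Sesn2 did not pass (adjusted p = 0.0647, 0.159, 0.0642 and 0.162). In the BCL2 family and cell death list 0 of 17 were called, and 3 had an unadjusted p under 0.05. Mcl1, an antiapoptotic protein, had a change of 0.43 ± 0.16 (adjusted p = 0.288).

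NRF2, the regulator that induces antioxidant and glutathione genes when its inhibitor KEAP1 is modified, had 2 called targets of 29 tested, with a list median of 0.09 and 8 members at an unadjusted p under 0.05. Hmox1, the enzyme that breaks down heme, had 3687, 4439 and 4497 at 3 h, against 139, 152 and 159.04 at 0 h, and rose by 4.78 ± 0.51 (adjusted p = 8.57e-07). No other listed NRF2 target came near it. Sqstm1, the autophagy receptor p62, had 5446, 5810.1 and 5978 at 3 h, against 3611, 3938 and 3942 at 0 h, and rose by 0.58 ± 0.13 (adjusted p = 0.0109), a call lost without DBA113 (adjusted p = 0.0794) or DBA160. The rise of Sqstm1 was 0.99 with the mean of its probe sets. It was also the 1 called gene of 18 on the autophagy list.

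Gclc, the catalytic subunit of the enzyme that limits glutathione synthesis, had 3817, 3950.5 and 3563 at 3 h, against 2080.2, 2415 and 2909 at 0 h. The groups did not overlap, but the change of 0.63 ± 0.23 did not pass (adjusted p = 0.261; 95% interval 0.16 to 1.09). Its partner Gclm had 1502, 1330.5 and 1558 at 3 h, against 1321, 1320.3 and 1466 at 0 h, with a change of 0.09 ± 0.11 (adjusted p = 0.846; interval -0.14 to 0.32). Nqo1, a quinone reductase and a standard NRF2 target, had 76.8, 50.8 and 80.1 at 3 h, against 69.0, 72.0 and 61.0 at 0 h, with a change of 0.02 ± 0.31 (adjusted p = 0.995; interval -0.62 to 0.65). For Gclm and Nqo1 the groups overlapped.

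Enzymes that handle the drug itself were not called. In the list of acetaminophen activation and conjugation 0 of 14 passed, 0 had an unadjusted p under 0.05, and the median was 0.16. Cyp2e1, the main P450 that forms NAPQI, had 18784, 19729 and 21432 at 3 h, against 19792, 15175 and 18959 at 0 h, overlapping, with a change of 0.16 ± 0.21 (adjusted p = 0.874; interval -0.28 to 0.60). In the methionine cycle, glutathione and sulfur amino acid list 0 of 23 passed and 4 had an unadjusted p under 0.05. Bhmt and Bhmt2, the methyltransferases that remake methionine from homocysteine, changed by 0.28 ± 0.15 and 0.21 ± 0.18 (adjusted p = 0.555 and 0.734). Of 22 metallothionein, zinc and iron genes 0 passed; Mt2, a metal-binding protein, had 11591, 11902 and 10927 at 3 h, against 4714, 8115 and 5223 at 0 h, without overlap, and missed the threshold at a change of 0.97 ± 0.26 (adjusted p = 0.0605).

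**Figure D2:**
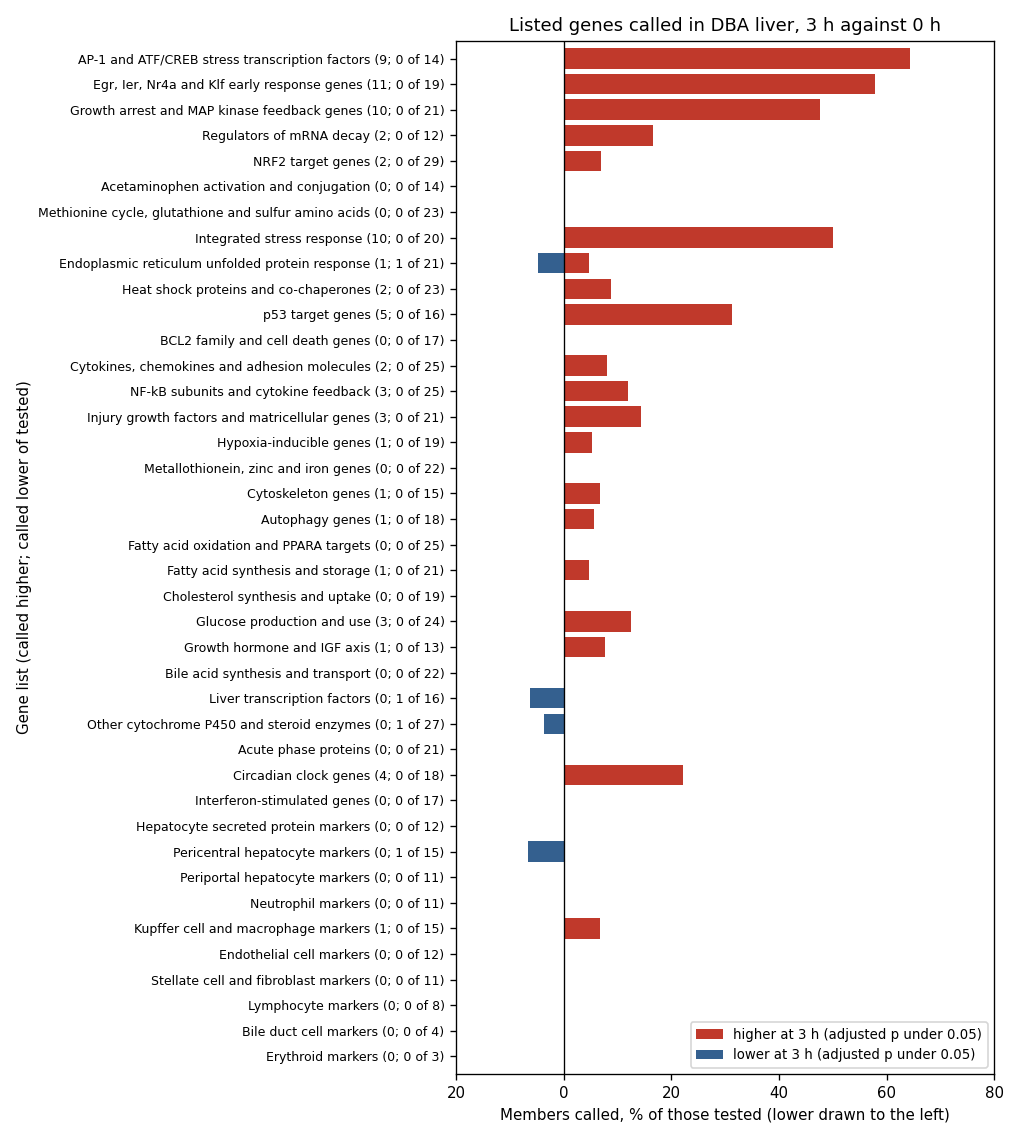
Share of the tested members of each of 40 gene lists called higher (red, to the right) or lower (blue, to the left) in DBA liver at 3 h against 0 h, with the counts beside each name. Among all 14057 genes 1.05% were called higher and 0.398% lower, and the AP-1 and ATF list, with 9 of 14, had the largest share.

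Inflammatory genes gave few calls. Of 25 cytokines, chemokines and adhesion molecules, 2 rose and 0 fell, and the median was -0.01. Cxcl2, a chemokine that attracts neutrophils, had 196, 337 and 325 at 3 h, against 1.68, 11.6 and 15.9 at 0 h, and rose by 4.73 ± 0.82 (adjusted p = 0.000964). Vcam1, an adhesion molecule of endothelium, rose by 1.32 ± 0.30 (adjusted p = 0.0186), a call that ended without DBA113, DBA115, DBA158 or DBA159 (adjusted p up to 0.117, without DBA115). Of 25 NF-kB subunits and cytokine feedback genes 3 rose: Tnfrsf12a, the TWEAK receptor, by 2.19 ± 0.37, Cebpd, an acute phase transcription factor, by 1.82 ± 0.29, and Nfkbiz, a nuclear regulator of NF-kB, by 1.77 ± 0.34 (adjusted p = 0.000807, 0.000322 and 0.00339). The numbers were 0 of 21 acute phase proteins, with 1 at an unadjusted p under 0.05, and 0 of 17 interferon-stimulated genes, also with 1.

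Neutrophils invade the injured liver, so their markers were read beside these genes. Of 11 tested, 0 were called and 0 had an unadjusted p under 0.05. The summed signal of the 12 on the array was 283 to 365 at 3 h and 298 to 426 at 0 h, which overlap. Cxcr2 and Itgam, and Camp which was not tested, were below 30.8, the median of all values, on all 6 arrays. Among 15 Kupffer cell and macrophage markers 1 rose, Cd14, the lipopolysaccharide co-receptor, which had 327, 363 and 375 at 3 h, against 71.6, 84.4 and 50.5 at 0 h, and a change of 2.35 ± 0.45 (adjusted p = 0.00289). Of the 15 markers 11 had a change above 0 and 2 an unadjusted p under 0.05, and the list median was 0.23. Among the defining markers, Clec4f averaged 618 at 3 h and 617 at 0 h, Vsig4 averaged 714 and 563, and Timd4 48.4 and 56.7. The summed signal was 5895 to 8065 at 3 h and 5511 to 5826 at 0 h, without overlap, and the part of this in the rise of Cd14 was not tested. In bulk liver a change in the number of cells of a type and a change in RNA per cell cannot be told apart.

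On the list of injury growth factors and matricellular genes, 3 of 21 rose. Lpin1, a phosphatidate phosphatase and transcriptional coactivator, was on it though it is neither. It had 335, 365 and 390.4 at 3 h, against 73.2, 82.9 and 70.6 at 0 h, and rose by 2.23 ± 0.32 (adjusted p = 8.26e-05). Epha2, an ephrin receptor, rose by 1.09 ± 0.22, and Plaur, the urokinase receptor, by 1.09 ± 0.21 (adjusted p = 0.00633 and 0.0036). Without DBA115 neither Epha2 nor Plaur was called (adjusted p = 0.0531 for each), and Epha2 lost its call without DBA158 too. Of 15 cytoskeleton genes 1 rose, Actg1, the cytoplasmic gamma actin, with 3739, 5672 and 3472 at 3 h, against 1786, 1461 and 1496 at 0 h, and a change of 1.41 ± 0.28 (adjusted p = 0.00502, and 0.0591 without DBA159, its highest mouse). Hypoxia-inducible genes gave 1 call of 19, Ddit4. Hilpda, a lipid droplet protein whose full name calls it hypoxia-inducible, was not on that list. It is among the 20 largest rises, with 554, 1404 and 1062 at 3 h, against 76.3, 103.3 and 74.2 at 0 h. Its rise was 3.45 ± 0.34 (adjusted p = 3.01e-07).

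Genes of glucose production, which the fasted liver runs under glucagon and glucocorticoids, rose in part: 3 of 24 were higher and 0 lower, 13 had an unadjusted p under 0.05, and the median was 0.28. Tat, tyrosine aminotransferase, a classical glucocorticoid target, had 9976, 9969.7 and 10031 at 3 h, against 2777, 3254 and 2998 at 0 h. The 3 h mice were nearly level with each other, and Tat rose by 1.73 ± 0.20 (adjusted p = 2.23e-06). Igfbp1, a secreted IGF-binding protein that insulin represses, had 16920, 18605 and 19108 at 3 h, against 1915, 7669 and 3086 at 0 h, and rose by 2.35 ± 0.34 (adjusted p = 9.34e-05). It was also the 1 called member of 13 on the growth hormone and IGF list. G6pc, glucose-6-phosphatase, had 5948, 5781 and 7429.5 at 3 h, against 2352, 1813 and 2351 at 0 h, and rose by 1.56 ± 0.39 (adjusted p = 0.0387), though it lost its call without any 1 of the 6 arrays (adjusted p up to 0.168, without DBA160). The list's summed signal was 75215 to 82259 at 3 h and 45035 to 49280 at 0 h. This sum includes the bright called genes Igfbp1, Tat and G6pc, and it was not taken without them.

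Of 18 clock genes, which oscillate with time of day, 4 rose and 0 fell, with a median of 0.02. Per1, a clock repressor that glucocorticoids also induce, had 258, 190.4 and 213 at 3 h, against 4.35, 104 and 41.0 at 0 h, and rose by 2.79 ± 0.53 (adjusted p = 0.00306). The 0 h mice were spread widely, from DBA113 to DBA114, and without DBA113 the rise was 1.70. Ciart, a clock repressor, had 102.9, 68.5 and 43.6 at 3 h, against 7.84, 2.36 and 3.57 at 0 h, and rose by 3.33 ± 0.55 (adjusted p = 0.000518), or by 2.04 with an offset of 16. Bhlhe40, a repressor of the clock and of stress genes, rose by 1.80 ± 0.27, and Nfil3, a bZIP repressor, by 1.20 ± 0.25 (adjusted p = 0.000102 and 0.00691). Nfil3 was not called without DBA113, DBA115 or DBA158 (adjusted p up to 0.0789, without DBA115). The clock time at which mice were taken was not given in the sources used here.

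The lists of lipid metabolism gave 1 call. Hilpda and Lpin1, which rose as given above, and Mfsd2a, which rose by 2.49 ± 0.47 (adjusted p = 0.00304), were not on these lists. Of 25 genes of fatty acid oxidation and PPARA targets 0 were called and 3 had an unadjusted p under 0.05, and for 19 genes of cholesterol synthesis and uptake both numbers were 0, with a median change of 0.42. In fatty acid synthesis and storage 1 of 21 rose, Thrsp, a lipogenic nuclear protein, with 1884, 618 and 381 at 3 h, against 117, 76.0 and 111 at 0 h, and a change of 2.90 ± 0.66 (adjusted p = 0.0175). DBA158 was far above the other 3 h mice, and the call ended without it (change 2.25, adjusted p = 0.152) or without any 1 of the 0 h mice. Bile acid synthesis and transport had 0 of 22, with 0 at an unadjusted p under 0.05. Secreted hepatocyte proteins had 0 of 12, and albumin (Alb) had 15942, 16348 and 21600 at 3 h, against 16519, 13175 and 16660 at 0 h, with a change of 0.21 ± 0.18 (adjusted p = 0.738).

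Markers of the pericentral hepatocytes, the zone in which acetaminophen is activated, gave 1 fall of 15 tested, with a list median of -0.60 and 6 members at an unadjusted p under 0.05. The gene was Tbx3, a T-box repressor driven by Wnt signals, which had 119, 142 and 149.6 at 3 h, against 433, 282 and 354 at 0 h, and fell by 1.35 ± 0.28 (adjusted p = 0.00852). Without DBA113 or DBA158 it was not called (adjusted p up to 0.0801, change -1.20, without DBA113), and 1 of its 3 other probe sets went the other way, at 0.87. Of 11 periportal markers 0 were called, 5 had an unadjusted p under 0.05, and the median was 0.23. The summed periportal signal was 75121 to 82992 at 3 h and 59142 to 64514 at 0 h, without overlap, and that of the pericentral list was 34383 to 39097 at 3 h and 35327 to 39367 at 0 h. Cyp2e1, the brightest pericentral marker, averaged 19982 at 3 h and 17975 at 0 h and weighs heavily in the pericentral sum. Changes were above 0 in 10 of the 11 periportal markers and in 4 of the 15 pericentral ones. They were also above 0 in 12 of 12 secreted hepatocyte proteins, with a median of 0.19 and overlapping summed signals. Whether the periportal rise is particular to that zone was not tested. Prox1, 1 of 16 liver transcription factors tested, had 192, 172 and 135 at 3 h, against 223, 337 and 269 at 0 h, and fell by 0.72 ± 0.18 (adjusted p = 0.0391), but not without DBA114, DBA115, DBA159 or DBA160 (adjusted p up to 0.267, without DBA160). It was the 1 call on that list.

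Of the marker lists for endothelial, stellate, lymphoid, bile duct and erythroid cells none had a called member, over 12, 11, 8, 4 and 3 genes tested. Bile duct markers had a median of -1.37, with 3 of 4 at an unadjusted p under 0.05. Krt19, a keratin of these cells, had 62.0, 21.6 and 37.6 at 3 h, against 246, 57.5 and 100.99 at 0 h, overlapping. The summed signals of the 5 bile duct markers on the array were 175 to 255 at 3 h and 208 to 608 at 0 h.

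Of the 56 genes that fell, 13 had a mean under 30.8 at 3 h, and most of the largest falls lost their call without 1 array. Rbmxl2, an RNA-binding protein known from the testis, had 15.1, 3.62 and 12.8 at 3 h, against 84.3, 94.3 and 86.9 at 0 h, and fell by 2.91 ± 0.69 (adjusted p = 0.0232). Fv1, a retrovirus restriction gene of mice, had 5.42, 4.76 and 7.39 at 3 h, against 42.02, 51.1 and 41.2 at 0 h, and fell by 2.47 ± 0.62 (adjusted p = 0.0369). At 3 h both were below 30.8. Rbmxl2 was not called without DBA113, DBA114, DBA115, DBA159 or DBA160 (adjusted p up to 0.171, without DBA159), and Fv1 without any 1 of the 6 (up to 0.139, without DBA159). Hsd3b3, a steroid dehydrogenase, had 29.7, 31.0 and 19.1 at 3 h, against 203, 62.2 and 214 at 0 h, and fell by 2.31 ± 0.54 (adjusted p = 0.0219), and it lost its call without DBA113, DBA115, DBA158, DBA159 or DBA160 (adjusted p up to 0.154, without DBA113). The other probe set tested for Hsd3b3 did not fall, at 0.06. With the mean of its probe sets, the actin ratio as covariate or the 6 arrays alone, Hsd3b3 was not called.

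Brighter genes also fell. Mup10, a major urinary protein secreted by the liver, had 1032, 716 and 458 at 3 h, against 3086, 2174 and 1851 at 0 h, and fell by 1.73 ± 0.41 (adjusted p = 0.0219), but not without DBA113, DBA114, DBA159 or DBA160 (adjusted p up to 0.171, without DBA160). Members of that family are near-identical, so its signal may hold several genes. Rtp3, a receptor transporter protein made in the liver, had 139, 79.1 and 82.1 at 3 h, against 260.2, 233.1 and 224 at 0 h, and fell by 1.28 ± 0.23 (adjusted p = 0.00133). Setd1b, a histone H3 lysine methyltransferase, had 138, 124 and 113.6 at 3 h, against 300.3, 281 and 228 at 0 h, and fell by 1.09 ± 0.19 (adjusted p = 0.000896). Of the 20 largest falls, Rtp3 and Setd1b were the 2 called without any 1 of the 36 arrays. In a fit of the 6 arrays alone neither passed (adjusted p = 0.125 and 0.0585).

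**Figure D3:**
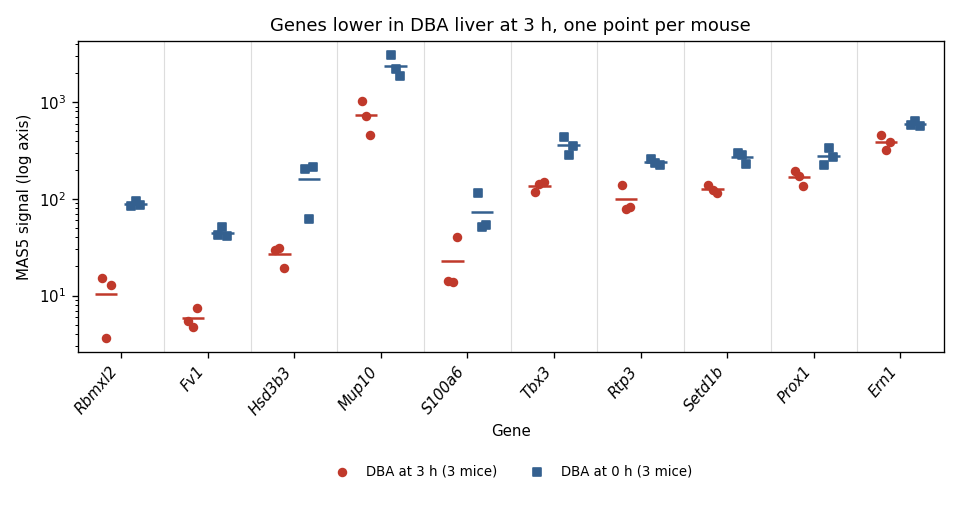
MAS5 signals on a log axis for 10 genes called lower, with 1 point per mouse, DBA at 3 h left of DBA at 0 h, and a bar at each group mean. The 3 mice at 3 h lie below the 3 at 0 h in all 10 genes, by a wide gap for Fv1 and Rbmxl2 at signals under 30.8 and by a narrow one for S100a6 and Prox1.

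The next comparison asked which changes at 3 h were higher or lower in DBA than the mean change of SJL, SMJ and C57, tested as a difference of differences. Signs were kept, so a lower change can be a larger fall, and a higher one can reflect a fall elsewhere. The test gave 41 genes with a higher change in DBA (0.292% of those tested) and 3 with a lower one (0.0213%), 44 in all (0.313%). An unadjusted p under 0.05 was found for 1041 genes. Of the 41, 35 were also called higher in DBA alone, and in all 41 the change in DBA was above that in each of the other strains. In 21 of the 41 no other strain had a called change, in 10 at least 1 was called higher and in 10 at least 1 was called lower. A fit of the DBA and other arrays at 0 h and 3 h alone gave 17 genes with a higher change and 1 with a lower one. Without a single DBA array the 41 became 17 to 24 for DBA113, DBA115, DBA158, DBA159 or DBA160, and 48 for DBA114.

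Ddit4 had the largest difference. In DBA it changed by 2.51 ± 0.49, against -0.60 in SJL, -0.79 in SMJ and -1.27 in C57, which made a difference of 3.40 ± 0.57 (adjusted p = 0.00286). It was higher in 3 of 3 DBA mice and its change was negative in each other strain, none of them called. Dusp1 differed by 2.97 ± 0.63, with 4.17 ± 0.54 in DBA, against 0.80 in SJL, 1.45 in SMJ and 1.36 in C57 (adjusted p = 0.0275). Per1 differed by 2.91 ± 0.61, with 2.79 ± 0.53 in DBA, against -0.36 in SJL, 0.26 in SMJ and -0.27 in C57 (adjusted p = 0.0281). Cdkn1a differed by 2.69 ± 0.59, with 3.07 ± 0.51 in DBA, against 0.21 in SJL, 0.48 in SMJ and 0.45 in C57 (adjusted p = 0.0401). For Btg2 all 4 strains rose, and DBA by more: 4.81 ± 0.35, against 2.09, 3.03 and 1.97 in SJL, SMJ and C57, a difference of 2.45 ± 0.41 (adjusted p = 0.00286). Csrnp1 and Mfsd2a, a transporter of lysophospholipids, differed by 2.37 ± 0.51 and 2.47 ± 0.55 (adjusted p = 0.0338 and 0.042).

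Several of these differences rest on few arrays. Btg2 and Ddit4 were called without any 1 of the 36 arrays, though Btg2 did not pass with only the arrays compared (adjusted p = 0.0511). Dusp1 was not called without any 1 of the 6 DBA arrays (adjusted p up to 0.121, without DBA113), nor Per1 without DBA113, DBA115, DBA158, DBA159 or DBA160 (up to 0.114, without DBA158). Without DBA113 the difference of Per1 was 1.82. Csrnp1 lost its call in 12 leave-outs (up to 0.245, without DBA115), Cdkn1a in 22 (up to 0.268, without DBA115) and Mfsd2a in 26 (up to 0.263, without DBA115). Csrnp1 differed by 1.04 and was not called with the mean of its probe sets (adjusted p = 0.55).

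Further genes differed from the other strains in the same test. Slc38a2 differed by 1.74 ± 0.21 (adjusted p = 5.52e-05), with 2.24 ± 0.18 in DBA, against 1.19 in SJL, 0.15 in SMJ and 0.16 in C57. Tat differed by 1.61 ± 0.23 (adjusted p = 0.0004), with 1.73 ± 0.20 in DBA, against -0.02, 0.37 and 0.01 in SJL, SMJ and C57. Tat thus moved by less than 0.4 in each other strain. Lpin1 differed by 2.32 ± 0.37, Igfbp1 by 2.02 ± 0.40, Trp53inp1 by 2.09 ± 0.38 and Cebpb by 1.09 ± 0.22 (adjusted p = 0.00216, 0.0167, 0.00834 and 0.0204). Without DBA113 Igfbp1 and Cebpb were not called (adjusted p = 0.121 and 0.15), nor without DBA115, DBA159 or, for Igfbp1, DBA160 and, for Cebpb, DBA158. Trp53inp1 lost its call without DBA113 or DBA159 (adjusted p up to 0.0728, without DBA159). Ifrd1, a coregulator of transcription with the smallest p of any change in DBA, had 1557, 2039 and 1729.5 at 3 h, against 157, 163 and 168.9 at 0 h, and rose by 3.41 ± 0.20 (adjusted p = 2.2e-11). It rose by 2.02, 1.05 and 1.41 in SJL, SMJ and C57, and differed by 1.92 ± 0.23 (adjusted p = 5.52e-05). Sgk1, a kinase gene induced by glucocorticoids and named here after its values were seen, had 2093, 1639 and 1638 at 3 h, against 230.7, 352 and 336 at 0 h. It changed by 2.55 ± 0.26 in DBA, against 0.17, 0.31 and 0.33 in SJL, SMJ and C57, and differed by 2.28 ± 0.30 (adjusted p = 0.000142).

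**Figure D4:**
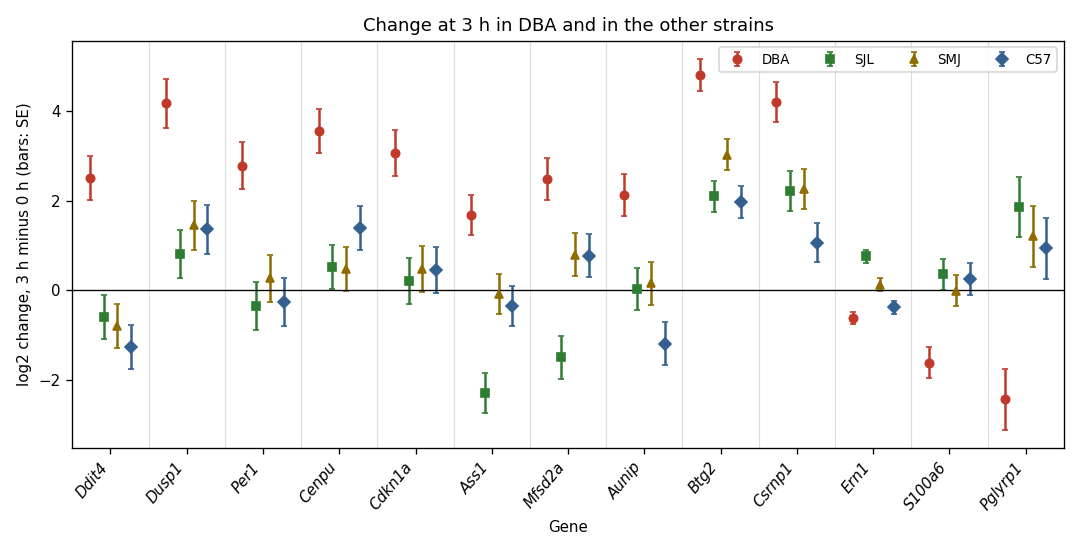
log2 change at 3 h against 0 h with SE bars in DBA, SJL, SMJ and C57 for the 10 genes with the largest excess in DBA and the 3 with the largest deficit. DBA is above the other strains for the first 10 genes and below them for Ern1, S100a6 and Pglyrp1, and for Ass1 and Pglyrp1 the change in DBA alone did not pass.

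Some of the 10 largest differences belong to probe sets that need care. Ass1, the urea cycle enzyme argininosuccinate synthase, had 236.4, 163 and 180.4 at 3 h, against 37.1, 48.2 and 106 at 0 h, on the probe set that carries its name alone, and differed by 2.59 ± 0.52 (adjusted p = 0.0195), though not without DBA113, DBA114, DBA158, DBA159 or DBA160 (adjusted p up to 0.121, without DBA113). A far brighter probe set that the annotation gives to Ass1 and 1 other gene had 11828, 11203 and 15353 at 3 h, against 10372, 9012 and 10678 at 0 h, a log2 ratio of means of 0.35. The 2 probe sets thus disagree in size. On the first, Ass1 changed by 1.68 ± 0.45 in DBA, not called (adjusted p = 0.0574), against -2.30 in SJL, called lower (adjusted p = 0.00116). It changed by -0.08 in SMJ and -0.35 in C57, so the fall in SJL is part of the difference. Cenpu, a centromere protein, had 81.1, 160.3 and 335 at 3 h, against 4.82, 18.4 and 14.7 at 0 h, and differed by 2.77 ± 0.57 (adjusted p = 0.024), and a second probe set rose by 5.02. Without DBA113, DBA115, DBA159 or DBA160 the difference of Cenpu was not called (adjusted p up to 0.162, without DBA113). H3f3b, a histone H3.3 gene among the 20 largest rises at 3.41 ± 0.64, had a similar limit: of 5 probe sets that it shares with other genes, 2 were clearly higher at 3 h (log2 ratios 1.71 and 1.46) and 3 were nearly level (0.05 to 0.11). Aunip, a mitotic protein, had a 0 h mean near the lower end of the scale and differed by 2.46 ± 0.55 (adjusted p = 0.042), with its call lost in 26 leave-outs (adjusted p up to 0.242, without DBA113).

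The 3 genes with a lower change in DBA, a negative one in each case, were Pglyrp1, a peptidoglycan-binding protein of neutrophils, S100a6, a calcium-binding protein, and Ern1. Pglyrp1 had 3.64, 6.70 and 7.22 at 3 h, against 146, 15.8 and 32.3 at 0 h, a change of -2.44 ± 0.68 that did not pass (adjusted p = 0.0756), and a difference of -3.77 ± 0.78 (adjusted p = 0.026). S100a6 had 14.1, 13.7 and 40.7 at 3 h, against 114.2, 51.1 and 53.5 at 0 h, and a difference of -1.82 ± 0.40 (adjusted p = 0.042). Pglyrp1 was not called without DBA113, DBA115, DBA158, DBA159 or DBA160 (adjusted p up to 0.176, without DBA113), and S100a6 lost its call in 24 leave-outs (up to 0.256, without DBA113). Ern1 differed by -0.79 ± 0.16 (adjusted p = 0.024), a call that ended without DBA113, DBA114, DBA115, DBA159 or DBA160 (adjusted p up to 0.146, without DBA159). With the mean of its probe sets the difference of Ern1 was -0.06 (adjusted p = 0.969).

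Set against the change in SJL, the strain called resistant, DBA differed in 335 genes (2.38%), 187 with a higher change in DBA (1.33%) and 148 with a lower one (1.05%). Of these 335, 276 were called in SJL at 3 h, where 10.1% of all genes were, and 43 in DBA. Among genes called higher in DBA whose change in SJL was negative was Mfsd2a, with 2.49 ± 0.47 in DBA, against -1.50 in SJL (difference 3.99 ± 0.67, adjusted p = 0.00143), and Rgs1, a regulator of G protein signalling, with 2.63 ± 0.35 in DBA, against -0.91 in SJL (difference 3.53 ± 0.50, adjusted p = 0.000334). Fgf21 changed by 2.39 ± 0.52 in DBA, against -0.94 in SJL (difference 3.34 ± 0.73, adjusted p = 0.014), and G6pc by 1.56 ± 0.39 in DBA, against -2.25 in SJL (difference 3.81 ± 0.56, adjusted p = 0.000443). For Bcl3, an atypical NF-kB inhibitor, and Nfkb2, an NF-kB subunit, the changes were -0.76 ± 0.54 and -0.15 ± 0.66 in DBA, neither called, against 3.03 and 3.79 in SJL (differences -3.79 ± 0.77 and -3.94 ± 0.93, adjusted p = 0.00752 and 0.0206). G0s2, a lipolysis inhibitor, and Cyp7a1, the hydroxylase that starts bile acid production, changed by 0.09 ± 0.50 and 0.81 ± 0.55 in DBA, neither called, against -4.62 and -2.67 in SJL (differences 4.71 ± 0.71 and 3.48 ± 0.78, adjusted p = 0.000574 and 0.0157). SJL at 3 h was the most variable group, with a median SD of 0.339 over genes on the log2 scale, against 0.218 for DBA at 3 h, while the model gave all groups 1 spread per gene. In a fit of the 12 arrays compared the counts were 5 and 0.

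Read list by list, 77 of the 148 genes higher in DBA were also called higher in SJL (52.0% of the DBA list and 12.2% of the 629 in SJL), 19 in SMJ (12.8% and 82.6% of 23) and 22 in C57 (14.9% and 75.9% of 29). Called in all 4 strains were 9 genes, and 66 were called in DBA and in none of the others. Among genes called lower, 11 of 56 were shared with SJL (19.6% and 1.38% of 795) and 0 with SMJ or C57. The background for these counts was 4.47% of genes higher and 5.66% lower in SJL, 0.164% and 0.00711% in SMJ (0.171% together), and 0.206% and 0.0783% in C57 (0.285% together). A call missed in another strain does not show a difference between strains, which the 41 genes above passed as a test of its own. Hmox1, for example, changed by 4.78 ± 0.51 in DBA, against 3.90 in SJL, 2.60 in SMJ and 3.59 in C57, and its difference of 1.42 ± 0.59 did not pass (adjusted p = 0.586).

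Livers of 3 further DBA mice at 6 h stand beside these values. The 6 h and 3 h changes share the 0 h mice, so their likeness is not a result, but 6 h against 3 h compares separate mice. The 3 h mice are the ones by which genes were picked above. A return at 6 h in such genes, as in Slc38a2, Setd1b and Ern1, is thus favoured by the choice. The comparison of 6 h with 3 h called 185 genes higher (1.32%) and 180 lower (1.28%) at 6 h, 365 in all (2.6%). For the early genes Atf3 and Hmox1 the difference between 6 h and 3 h did not pass. Atf3 averaged 3408 ± 592 at 6 h, against 1739 ± 162 at 3 h (change 0.96 ± 0.59, adjusted p = 0.475), and Hmox1 4888 ± 547 at 6 h, against 4208 ± 452 at 3 h (change 0.22 ± 0.51, adjusted p = 0.906). Cd14 rose further, to 1414 ± 510.2 at 6 h, against 355 ± 25.0 at 3 h (change 1.92 ± 0.45, adjusted p = 0.0198), as did Tnfrsf12a, with 2016 ± 1469 at 6 h, against 462 ± 139 at 3 h (change 1.92 ± 0.37, adjusted p = 0.00549). Ifrd1, Actg1 and Mcl1 were also higher at 6 h than at 3 h, by 0.98 ± 0.20, 1.26 ± 0.28 and 0.97 ± 0.16 (adjusted p = 0.00877, 0.0152 and 0.0016). Slc38a2 was lower at 6 h, at 3058 ± 644, against 4918 ± 298 at 3 h (change -0.70 ± 0.18, adjusted p = 0.0387). Setd1b and Ern1, lower at 3 h, were higher at 6 h than at 3 h, by 0.80 ± 0.19 and 0.77 ± 0.14 (adjusted p = 0.0205 and 0.00354).

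**Figure D5:**
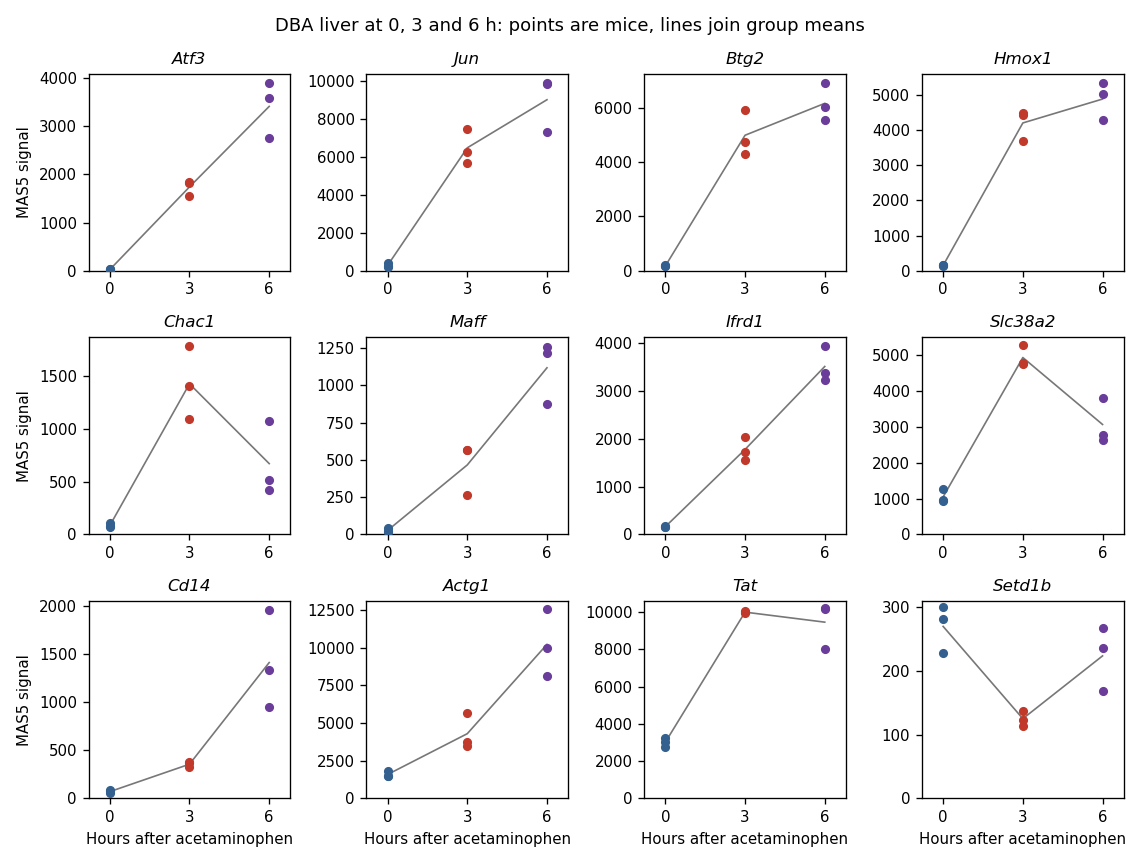
MAS5 signals of 12 genes in DBA liver at 0, 3 and 6 h after acetaminophen, with 1 point per mouse and lines through the group means; each panel starts at 0. Chac1 and Slc38a2 have their highest mean at 3 h, Maff, Cd14, Actg1 and Ifrd1 at 6 h, and Setd1b its lowest at 3 h.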

How the data were processed

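RNA of single mouse livers had been hybridised to 36 one-colour arrays of 45101 probe sets. The deposited values are MAS5 signal intensities on a linear scale, 1 per probe set, scaled by the authors to a common trimmed mean, with MAS5 named per the submitters' processing notes. No scanner files were used here, and a signal is not comparable between probe sets.

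Control probe sets and those annotated to several genes (932) or none (9160) were left out. Each gene was read from the probe set with the highest mean log2 value, avoiding sets marked as cross-hybridising. Genes above 30.8, the median of all values, on at least 3 arrays were tested on log2(signal + 2.77), where 2.77 is the 10th percentile of all values. A fold on this scale understates changes of dim genes. limma 3.58.1 in R 4.3.3 fitted 12 group means over all 36 arrays, with Benjamini-Hochberg adjustment and a threshold of 0.05. Contrasts were DBA at 3 h minus 0 h, that change minus the mean change of the other strains, and that change minus the change in SJL. The labels do not say how separate the mice of a group were beyond their numbers, and they give no batches.

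Genes picked for naming were the 20 largest rises and 20 largest falls whose arrays do not overlap between the groups, and called list members. Added were the member with the smallest p in lists with no call and the 10 largest called differences in each direction for each strain comparison. Always included were Atf3, Hmox1, Gclc, Gclm, Nqo1, Bhmt, Bhmt2, Cyp2e1 and Alb. Not all genes picked are mentioned. Unnamed clones were passed over. Alternatives were other offsets, scalings, filters, probe set rules and fits, and leaving out each array. The members and the lists were chosen with earlier results of these data known, so no list count is independent support. On simulated data of these arrays, the first contrast recovered 32%, 60.5% and 79% of genes changed 1.5-, 2- and 4-fold.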

Additional observations from a re-analysis of the deposited data

Results flagged for a closer look

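The change at 3 h differed between DBA and other strains in the following genes by a test of the difference itself, the change in DBA minus the other change in the limma model over 36 arrays (adjusted p under 0.05).
Against the mean of SJL, SMJ and C57, the 10 largest positive differences were those of Ddit4 (3.40), Dusp1 (2.97), Per1 (2.91), Cenpu (2.77), Cdkn1a (2.69), Ass1 (2.59), Mfsd2a (2.47), Aunip (2.46), Btg2 (2.45) and Csrnp1 (2.37). The 3 negative ones were Pglyrp1 (-3.77), S100a6 (-1.82) and Ern1 (-0.79).

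Against SJL alone, the 10 largest of the 187 positive differences among genes with an official name were G0s2 (4.71), Mfsd2a (3.99), Ass1 (3.98), G6pc (3.81), Rgs1 (3.53), Cyp7a1 (3.48), Dusp1 (3.37), Fgf21 (3.34), Chrna2 (3.15) and Per1 (3.14). The 10 largest of the 148 negative ones, by the same rule, were Serpina7 (-5.22), Pglyrp1 (-4.30), Serpina9 (-4.16), Nfkb2 (-3.94), Bcl3 (-3.79), Ccl7 (-3.77), Slfn4 (-3.40), Fv1 (-3.35), Adgrg2 (-3.13) and Steap4 (-3.09). Serpina7, thyroxine-binding globulin, changed by -1.43 ± 0.72 in DBA, against 3.78 in SJL, and Ccl7, a monocyte chemokine, by -1.06 ± 0.64 in DBA, against 2.71 in SJL. Slfn4 changed by -1.23 ± 0.60 in DBA, against 2.17 in SJL. In these 3 genes the change in DBA did not pass (adjusted p = 0.49, 0.598 and 0.463). SJL at 3 h had the largest spread of the 12 groups.
With only the arrays compared, 19 of these 20 differences did not pass (adjusted p up to 0.304, for Per1), Rgs1 being the exception. Without 1 array, calls ended for Steap4 in 25 leave-outs, Fv1 in 9, Slfn4 in 8, Ccl7 in 6, Adgrg2 and Per1 in 4 each, Nfkb2 in 2, and Dusp1 and Pglyrp1 in 1 each. Over all settings, leave-outs included, the call ended in 31 of 48 for Steap4, 13 of 47 for Fv1, 10 of 47 for Slfn4 and 5 of 46 for Adgrg2. Against the mean of the other strains, the call of Mfsd2a ended in 26 leave-outs, Aunip in 26, S100a6 in 24, Cdkn1a in 22 and Csrnp1 in 12.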

How the results depend on the processing

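Of the genes tested, 1.05% were higher and 0.398% lower in DBA at 3 h. With only the 6 arrays compared these were 0.498% and 0.157% (70 and 22 genes), with every probe set as its own feature 1.03% and 0.62% (261 and 157 probe sets), and with array weights 1.64% and 1.28%. Scaling to the 75th percentile, quantile normalization, other offsets, no filter, a stricter filter, the mean of a gene's probe sets, a trended robust fit and the actin ratio as covariate kept both counts within 1.5 times. Leaving out 1 array gave 0.711% to 1.21% higher and 0.121% to 0.576% lower.
The change in DBA was higher than the mean change of the other strains for 0.292% and lower for 0.0213%. These became 0.121% and 0.00711% (17 and 1 genes) with only the arrays compared and 0.470% and 0.114% (66 and 16) with array weights. The lower changes were 7 genes in each of 4 further settings: 0.0661% with a stricter filter, 0.0276% with every probe set, 0.0554% with the mean of probe sets and 0.0498% with the trended robust fit. Leaving out 1 array gave 0.121% to 0.349% higher and 0% to 0.064% lower. Against SJL, 1.33% higher and 1.05% lower became 0.0356% and 0% (5 and 0 genes) with only the arrays compared, a fit with fewer samples. Without 1 array they ranged from 0.783% to 2.38% and from 0.576% to 1.83%, lowest without SJL mouse 2 at 0 h and highest without SJL mouse 42 at 3 h. For the other settings the cause was not tested.
Signs of the change in DBA turned for some genes near 0 or with disagreeing probe sets. With the mean of probe sets Ern1 was 0.048 and Mcl1 -0.014. With quantile normalization G0s2 was -0.0031 and Cyp2e1 -0.041. With the actin ratio G0s2 was -0.038, Chrna2 0.041 and Nfkb2 0.075, and with array weights Steap4 was 0.14 and Nqo1 -0.037. Without 1 array, G0s2 ranged from -0.23 to 0.37, Cyp7a1 from -0.076 to 1.33, Serpina9 from -0.94 to 0.26, Nfkb2 from -0.46 to 0.35, Steap4 from -0.38 to 0.45 and Nqo1 from -0.10 to 0.22.
Precision is limited by 3 arrays a group and, for dim genes, by signals near the offset. No paired analysis was possible because the groups compared share no replicate numbers: each mouse has a number of its own.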
